A study of Mus musculus with 9 samples.

Results

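Integrin subunits and the focal adhesion genes that act with them were measured in the mouse myoblast line C2C12, an established cell line, after transfection with an siRNA against Cugbp1, an siRNA against Mbnl1 or a control siRNA. The genes were chosen by name. They are the 19 alpha and beta integrin subunits with a numbered symbol, with Itga6 left out, and 14 further genes (Tln1, Tln2, Vcl, Pxn, Ptk2, Zyx, Ilk, Parva, Lims1, Fermt2, Bcar1, Tns1, Vasp and Src). Together they make 33 of the 22071 genes to which the array's annotation gives a probe set with exactly 1 symbol, and 985 of its 1195555 probe sets. The cells grew in medium with serum, carried no other stated alteration, and were lysed 48 h after transfection. Each group has 3 exon arrays. Whether the 3 arrays of a group stem from separate cultures is not stated, and p-values therefore cover the spread among these arrays alone, which could be technical. A single line and a single time were tested.

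Integrins are surface receptors made of an alpha and a beta subunit that bind the extracellular matrix outside the cell and, through adaptor proteins, the actin cytoskeleton inside it. Talin and kindlin bind the beta subunit's tail and switch the receptor on, and a ternary complex of integrin-linked kinase, PINCH and parvin, together with focal adhesion kinase, paxillin and p130Cas, carries signals from it. In muscle, ITGB1 with ITGA5 binds fibronectin and with ITGA7 binds laminin, and myoblasts use these receptors to attach, migrate and fuse. ITGAV, an alpha subunit named by a letter and not among the 33 genes, is the partner of ITGB3, ITGB5, ITGB6 and ITGB8, and also pairs with ITGB1. Celf1 is the current symbol of Cugbp1. Its product and MBNL1 bind RNA and act on alternative splicing and on the stability of mRNAs.

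Both targeted genes were low in the group meant to lack them. Celf1 averaged 8.67 ± 0.12 in Cugbp1 siRNA cells and 10.06 ± 0.06 in Mbnl1 siRNA cells, and 10.13 ± 0.02 in control siRNA cells (log2 intensity, mean ± SD, n = 3). Mbnl1 averaged 11.50 ± 0.06, 10.11 ± 0.07 and 11.45 ± 0.01 in the same groups. The median intensity was 42.3 to 42.9 on the siRNA arrays and 43.6 to 43.8 on the control arrays. The myoblast markers Myod1, Myf5, Des, Cdh15, Pax7, Chrna1 and Mymk all passed the filter given below. Markers of other cell types, such as Gfap, Ptprc and Pecam1, passed it too, so passing shows no cell identity. In controls Des and Chrna1 averaged 11.88 and 12.28, while Pax7 averaged 7.71, as did Gfap. The summed intensity of the myoblast markers was 12567 to 12756 after Cugbp1 siRNA, 11637 to 12856 after Mbnl1 siRNA and 12019 to 12282 in controls. Single markers moved within that sum: Mymk, Cdh15 and Myod1 rose after Cugbp1 siRNA, by 0.54, 0.32 and 0.30 (limma adjusted p = 5.30e-04, 0.00602 and 0.0142), and Myf5 fell by 0.28 after Mbnl1 siRNA (limma adjusted p = 0.0147). Their part in the results was not tested.

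Testing needed 3 or more probe sets of a gene at or above the 75th percentile of all probe sets in their mean over the 9 arrays, a log2 intensity of 7.0. Of the 33 genes, 29 passed. The collagen-binding subunits Itga1 (2 of 39 probe sets at the threshold) and Itga2 (0 of 27), the leukocyte subunit Itga4 (1 of 21) and Itga8 (2 of 34) did not. Fitted without the filter, none of these 4 was called in any comparison, with adjusted p-values of 0.354 to 0.965 (limma with Benjamini-Hochberg adjustment). Passing this filter shows intensity above the threshold and not expression. Markers of other cell types, such as Ptprc, Pecam1 and Gfap, passed it too. Counts over the 29 describe genes above the threshold.

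After Cugbp1 siRNA 11 of the 29 genes (37.9%) were called at an adjusted p under 0.05, against 38.7% of all 12646 genes tested. Fermt2, Itgb5, Itgb8, Ptk2 and Tln2 rose (5 genes, with 26.0% of all genes called higher), and Itga5, Itga9, Itga11, Itgb3, Itgb4 and Itgb6 fell (6 genes, with 12.7% of all called lower). After Mbnl1 siRNA 11 of 29 (37.9%) were called, against 41.5% of all genes. Itgb3, Itgb5, Itgb8, Ptk2 and Tln2 rose (5 genes, 26.9% of all), and Itga2b, Itga9, Itga11, Itgb6, Itgb7 and Tln1 fell (6 genes, 14.6% of all). Both shares lie near that of all genes, and most changes were small. Changes of at least 0.3 on the log2 scale were called in 1 gene after Cugbp1 siRNA (3.45%, against 12.6% of all genes) and in 3 after Mbnl1 siRNA (10.3%, against 16.3%). The arrays of the 2 groups did not overlap in 16 of the 29 genes after Cugbp1 siRNA and in 15 after Mbnl1 siRNA, against 48.8% and 57.5% of all genes. The split of calls by direction moved with the scaling: centring each array on its median gave 8 higher and 4 lower after Cugbp1 siRNA and 8 and 3 after Mbnl1 siRNA, and centring on the median gene gave 2 and 8, and 3 and 7. Both comparisons use the same 3 control arrays.

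Between the siRNAs 4 of 29 genes (13.8%) were called, against 9.34% of all genes. All 4 were beta subunits, Itgb1, Itgb3, Itgb5 and Itgb8, and all 4 were lower after Cugbp1 siRNA than after Mbnl1 siRNA. Lower calls made up 5.07% of all genes and higher calls, of which the 29 held 0, made up 4.27%. Differences of at least 0.3 were called in 2 of the 29 (6.90%), against 3.34% of all genes, and the arrays did not overlap in 11, against 29.5%. The median difference of the 8 beta subunits between the siRNAs was -0.15, that of the 29 genes -0.02 and that of all genes 0.01 on the log2 scale. Against control the beta subunits had a median change of -0.06 after Cugbp1 siRNA and of 0.20 after Mbnl1 siRNA, while the median of all genes was 0.05 and 0.04.

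**Figure D1:**
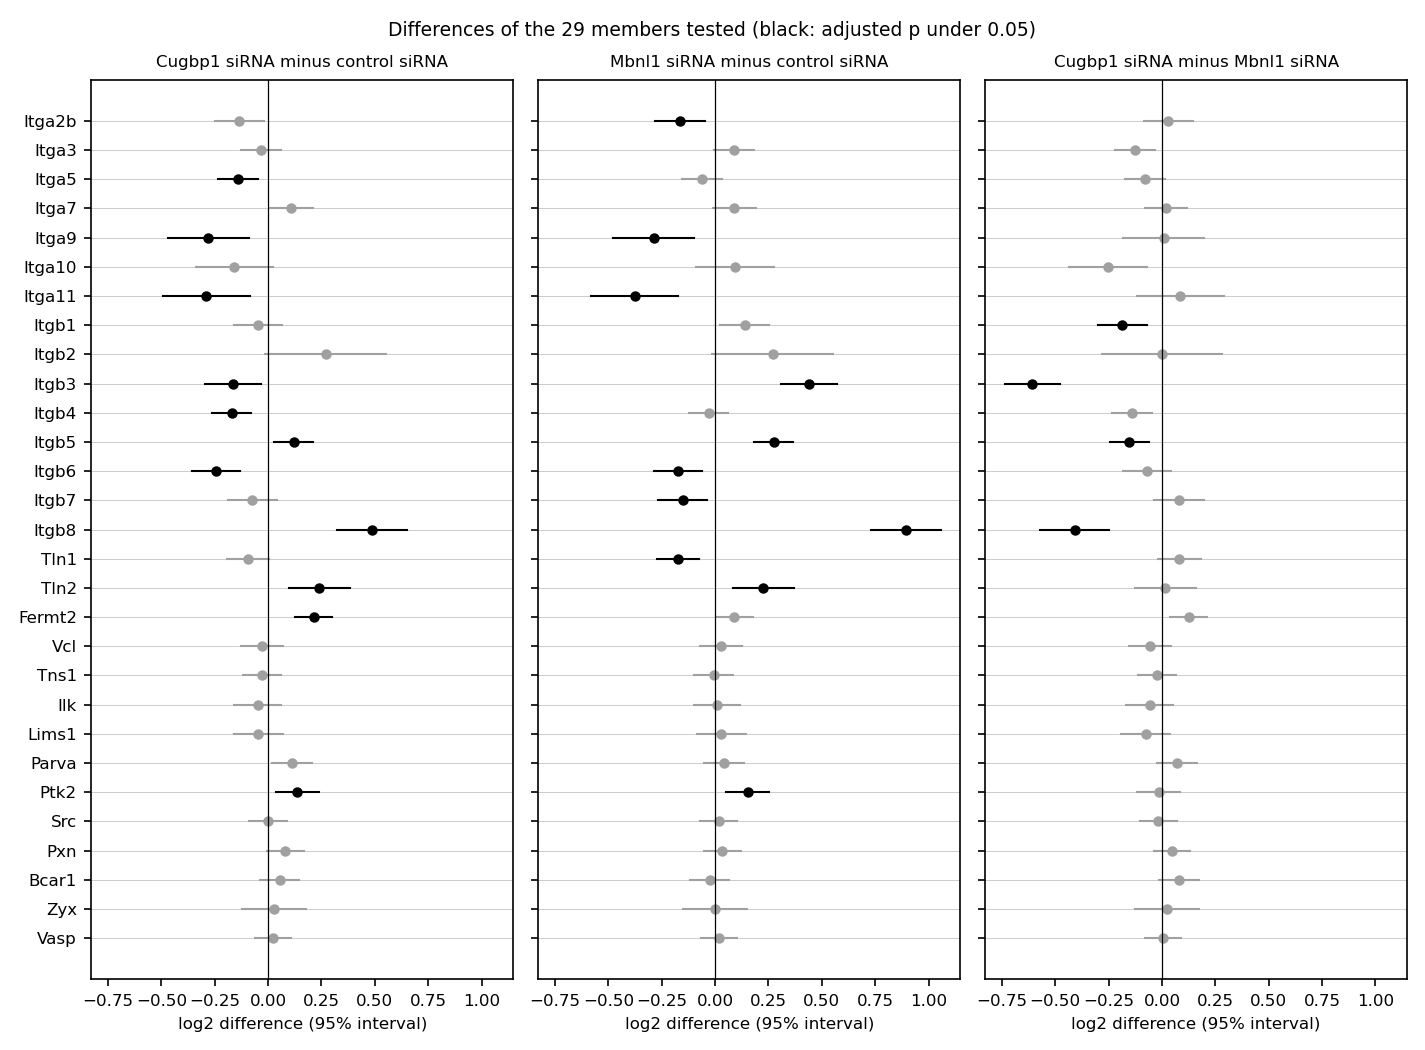
Log2 differences of the 29 tested genes with their 95% intervals, in 3 panels for Cugbp1 siRNA minus control siRNA, Mbnl1 siRNA minus control siRNA and Cugbp1 siRNA minus Mbnl1 siRNA; points in black have an adjusted p under 0.05. Itgb8 stands farthest to the right against control (0.49 and 0.90), and the called differences between the siRNAs are those of Itgb1, Itgb3, Itgb5 and Itgb8, all to the left of 0.

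Itgb8, whose product pairs with ITGAV and is known for releasing active TGF-beta from its latent complex, changed most of the 29 genes against control in both comparisons. It measured 7.77, 7.88 and 7.88 on the Cugbp1 siRNA arrays, 8.21, 8.38 and 8.17 on the Mbnl1 siRNA arrays, and 7.41, 7.44 and 7.22 on the control arrays (log2 intensity). The 3 groups do not overlap: every Mbnl1 siRNA array is above every Cugbp1 siRNA array, and each of those is above every control. The gene rose by 0.49 after Cugbp1 siRNA (SE 0.07, 1.40-fold, limma adjusted p = 0.00117) and by 0.90 after Mbnl1 siRNA (SE 0.07, 1.86-fold, limma adjusted p = 3.18e-05). The difference between the siRNAs was -0.41 (SE 0.07, limma adjusted p = 0.00728). Of its 19 probe sets, 16 had a higher group mean after Cugbp1 siRNA than in controls, 18 had a higher mean after Mbnl1 siRNA than in controls, and 18 had a lower mean after Cugbp1 siRNA than after Mbnl1 siRNA.

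Itgb3, the beta subunit of a vitronectin and fibronectin receptor, went opposite ways. It measured 8.92, 9.12 and 9.06 after Cugbp1 siRNA, 9.59, 9.70 and 9.63 after Mbnl1 siRNA, and 9.16, 9.18 and 9.25 in controls. No Cugbp1 siRNA array reached the lowest control, and no control reached the lowest Mbnl1 siRNA array. Itgb3 rose after Mbnl1 siRNA by 0.44 (SE 0.06, 1.36-fold, limma adjusted p = 4.39e-04). It fell by 0.17 on the log2 scale after Cugbp1 siRNA (SE 0.06, limma adjusted p = 0.0483), a call at the edge of the threshold. The difference between the siRNAs, -0.61 (SE 0.06, 0.66-fold, limma adjusted p = 2.46e-04), was the largest of the 29 genes. Of its 16 probe sets 14 were higher after Mbnl1 siRNA than in controls, and on each of those 14 the arrays did not overlap. The other 2 were lower, 1 of them without overlap of the arrays, and the lowest change was -0.33. The fall after Cugbp1 siRNA lost its call in 7 of the 9 fits that left out 1 array, all but those without control replicate 1 or Cugbp1 siRNA replicate 2, and ranged from -0.24 to -0.11 over the 9 fits (highest adjusted p 0.102); ranges given below for fits with 1 array left out are over all 9. It also ended without the filter, with the arrays centred on their median and with the compared groups alone (adjusted p 0.112, 0.104 and 0.0775).

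**Figure D2:**
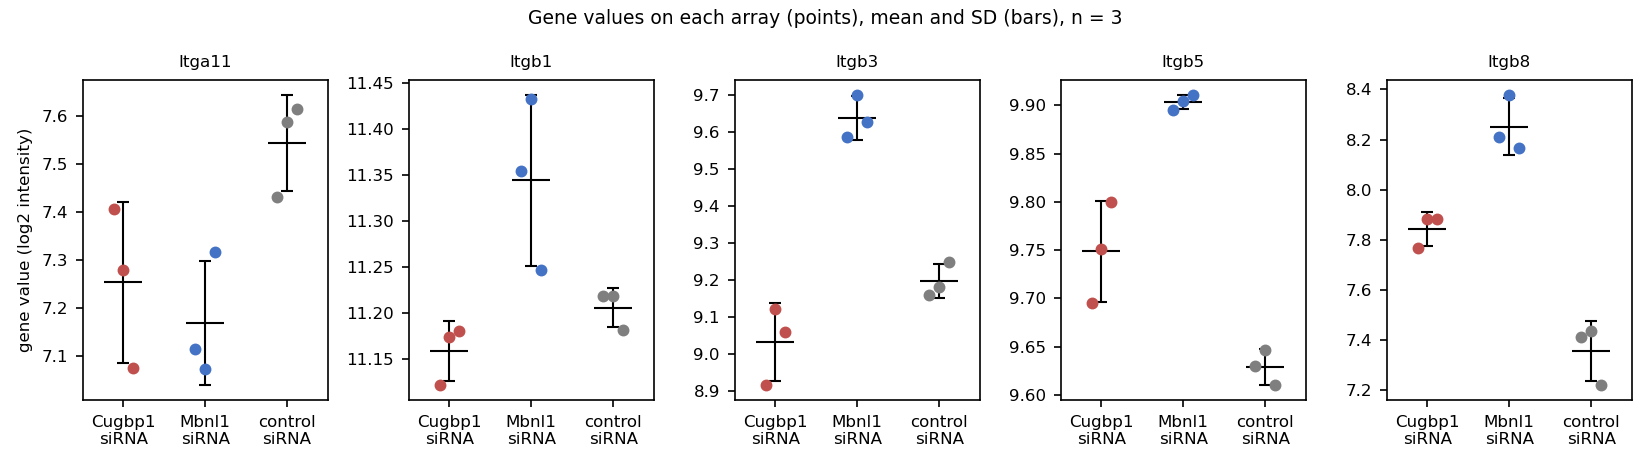
Gene values (log2 intensity) on each array for Itga11, Itgb1, Itgb3, Itgb5 and Itgb8, with the Cugbp1 siRNA, Mbnl1 siRNA and control siRNA groups from left to right; points are arrays and bars the mean and SD of 3 arrays, and each panel has its own axis. In the 4 beta subunits every Mbnl1 siRNA array lies above every Cugbp1 siRNA array, and in Itga11 every siRNA array lies below the controls.

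Itgb5 encodes another partner of ITGAV in vitronectin binding. It measured 9.70, 9.75 and 9.80 after Cugbp1 siRNA, 9.90, 9.90 and 9.91 after Mbnl1 siRNA, and 9.63, 9.65 and 9.61 in controls, again in 3 groups that do not overlap. It rose by 0.27 after Mbnl1 siRNA (SE 0.04, limma adjusted p = 8.08e-04) and by 0.12 after Cugbp1 siRNA (SE 0.04, limma adjusted p = 0.0419), and differed by -0.15 between the siRNAs (limma adjusted p = 0.0435). The Cugbp1 siRNA call ended in 8 of 9 fits with 1 array left out, all but that without Cugbp1 siRNA replicate 1 (0.08 to 0.14, highest adjusted p 0.269), and with the arrays centred on the median gene (0.03). The call between the siRNAs also ended in 8 of 9 such fits, all but that without Cugbp1 siRNA replicate 3 (-0.18 to -0.11, highest adjusted p 0.206).

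Itgb1 encodes the beta subunit shared by the fibronectin, laminin and collagen receptors of muscle cells. It measured 11.12, 11.17 and 11.18 after Cugbp1 siRNA, 11.35, 11.43 and 11.25 after Mbnl1 siRNA, and 11.22, 11.22 and 11.18 in controls. The Mbnl1 siRNA arrays lie above all others, and the Cugbp1 siRNA arrays just below the controls. Neither change against control passed the test: it was 0.14 after Mbnl1 siRNA (95% interval 0.02 to 0.25, limma adjusted p = 0.052) and -0.05 after Cugbp1 siRNA (-0.16 to 0.07, limma adjusted p = 0.479). The first passed without the filter (0.17, adjusted p = 0.0334), and also with the stricter filter, with the arrays centred on their median and with the mean of the kept probe sets (adjusted p 0.0449, 0.0221 and 0.00321). Between the siRNAs the difference was -0.19 (SE 0.05, limma adjusted p = 0.0483), and each of the 19 probe sets was lower after Cugbp1 siRNA than after Mbnl1 siRNA. That call ended in 5 of 9 fits with 1 array left out, those without control replicate 1, Cugbp1 siRNA replicates 2 or 3, or Mbnl1 siRNA replicates 1 or 2 (-0.25 to -0.15, highest adjusted p 0.137).

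**Figure D3:**
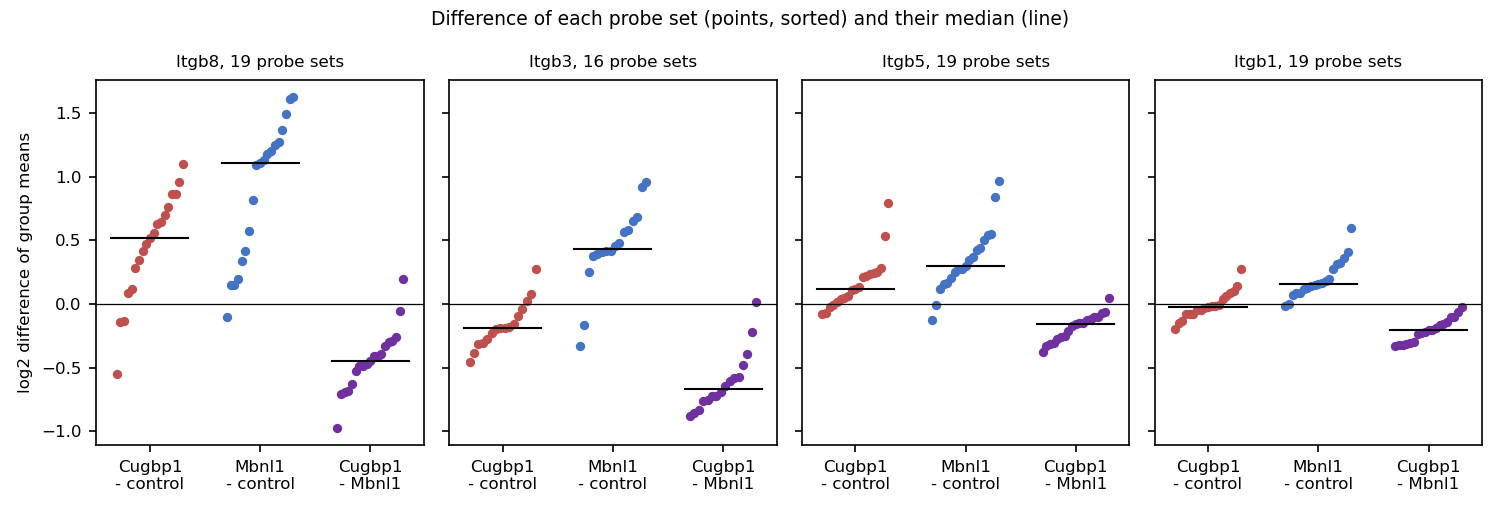
Log2 differences of group means for each probe set of Itgb8, Itgb3, Itgb5 and Itgb1 (points, sorted) with their median (line), for Cugbp1 siRNA minus control siRNA, Mbnl1 siRNA minus control siRNA and Cugbp1 siRNA minus Mbnl1 siRNA. Nearly all points of the last column are below 0, in 18 of 19, 15 of 16, 18 of 19 and 19 of 19 probe sets.

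The promoters of these subunits are shown because the genes differed in the same direction between the siRNAs. RefSeq tables for assembly GRCm38.p6 hold 3 of the 4, and Itgb3 is named only. The windows are the 250 bases before the gene's start, with GC boxes (GGGCGG, either strand) and CCAAT boxes (CCAAT, either strand) in capitals. The Itgb1 window is chr8:128685404-128685653 on the plus strand, that of Itgb5 chr16:33829415-33829664 on the plus strand and that of Itgb8 chr12:119238277-119238526 on the minus strand.
Itgb1: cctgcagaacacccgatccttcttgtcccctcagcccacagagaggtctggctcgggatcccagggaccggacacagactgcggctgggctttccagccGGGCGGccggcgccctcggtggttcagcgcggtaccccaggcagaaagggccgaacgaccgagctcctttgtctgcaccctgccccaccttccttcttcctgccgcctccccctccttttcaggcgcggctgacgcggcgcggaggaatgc
Itgb5: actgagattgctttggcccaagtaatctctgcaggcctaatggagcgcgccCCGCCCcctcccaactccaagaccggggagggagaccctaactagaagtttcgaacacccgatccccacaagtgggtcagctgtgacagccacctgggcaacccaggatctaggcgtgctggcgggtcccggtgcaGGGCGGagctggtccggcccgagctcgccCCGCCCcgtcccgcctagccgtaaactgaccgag
Itgb8: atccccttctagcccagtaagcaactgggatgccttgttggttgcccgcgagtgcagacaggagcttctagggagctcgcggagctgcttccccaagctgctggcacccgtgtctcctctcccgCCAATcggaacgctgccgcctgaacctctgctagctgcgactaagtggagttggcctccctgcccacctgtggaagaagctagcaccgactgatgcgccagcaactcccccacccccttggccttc
The Itgb1 window has 1 GC box and the Itgb5 window 3, and the Itgb8 window has none but 1 CCAAT box. None of them holds TATAAA. Their GC contents of 68.0%, 65.2% and 62.4% are above the median of 52.4% over all promoter windows. Among 32851 windows of the same length, 32.7% hold a GC box, 33.8% a CCAAT box and 12.4% TATAAA. For the 33 genes 31 windows of 25 genes were found, and 15, 6 and 1 of the windows hold these motifs. A match here describes letters only and shows no binding site.

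The other beta subunits were not called between the siRNAs in the fit to all arrays. Itgb4, the laminin receptor subunit of epithelial hemidesmosomes, measured 7.73 to 7.80 after Cugbp1 siRNA, 7.88 to 7.94 after Mbnl1 siRNA and 7.91 to 7.97 in controls. It fell by 0.17 after Cugbp1 siRNA (limma adjusted p = 0.0102), and its change after Mbnl1 siRNA was -0.03 (-0.12 to 0.06, limma adjusted p = 0.588). Itgb6, another subunit of epithelia, fell by 0.24 after Cugbp1 siRNA (limma adjusted p = 0.00526) and by 0.17 after Mbnl1 siRNA (limma adjusted p = 0.0203). It rests on 5 of 26 probe sets. Without the filter its change after Mbnl1 siRNA was 0.10 and was not called (adjusted p = 0.128), and the call ended in 5 of 9 fits with 1 array left out, those without control replicates 1 or 3 or any Mbnl1 siRNA array (-0.20 to -0.14). Of the epithelial markers, Krt5 and Cdh1 fell after both siRNAs. Krt14 fell after Cugbp1 siRNA and was 0.00 after Mbnl1 siRNA (limma adjusted p = 0.973). Krt5, Krt14 and Cdh1, the 3 of 4 markers tested, summed to 689 to 814 after Cugbp1 siRNA, 786 to 808 after Mbnl1 siRNA and 887 to 944 in controls (intensity), while Epcam did not pass the filter. Their part in the result was not tested.

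Itgb7, a leukocyte subunit, fell by 0.15 after Mbnl1 siRNA (limma adjusted p = 0.0393), and its change after Cugbp1 siRNA was -0.07 (limma adjusted p = 0.281). The first call ended in 6 of 9 fits with 1 array left out, all but those without control replicate 3, Cugbp1 siRNA replicate 1 or Mbnl1 siRNA replicate 2 (-0.20 to -0.12). Itgb2, the common beta subunit of leukocytes, was 0.27 above control after both siRNAs and was not called (limma adjusted p = 0.116 and 0.112), on 3 of 18 probe sets and with wide intervals of -0.01 to 0.55 in both cases. With the mean of those probe sets both changes were called (0.37 and 0.29, adjusted p 0.00662 and 0.0205). The 5 haematopoietic markers, which include Itgb2 and Itgam, summed to 1187 to 1238 after Cugbp1 siRNA, 1309 to 1404 after Mbnl1 siRNA and 1324 to 1376 in controls. Csf1r and Itgam fell after both siRNAs and Cd68 rose by 0.49 after Mbnl1 siRNA, and their part in the subunits' values was not tested.

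Among the alpha subunits, Itga11, Itga9, Itga5 and Itga2b fell in at least 1 comparison with control and none rose. Itga11, a collagen receptor subunit of mesenchymal cells, measured 7.41, 7.28 and 7.07 after Cugbp1 siRNA, 7.12, 7.07 and 7.32 after Mbnl1 siRNA, and 7.43, 7.59 and 7.61 in controls. All 6 siRNA arrays are below the lowest control, narrowly in the case of Cugbp1 siRNA replicate 1, and the siRNA groups overlap each other. It fell by 0.29 after Cugbp1 siRNA (SE 0.09, limma adjusted p = 0.0309) and by 0.38 after Mbnl1 siRNA (SE 0.09, limma adjusted p = 0.00895). It rests on 6 of 32 probe sets, and neither fall was called without the filter (-0.05 and -0.02) or with the mean of the kept probe sets (-0.21 in both). The Cugbp1 siRNA call also ended in 4 fits with 1 array left out, those without control replicates 2 or 3, Cugbp1 siRNA replicate 3 or Mbnl1 siRNA replicate 1 (-0.37 to -0.22).

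Itga9, a receptor subunit for tenascin and VCAM1, fell by 0.28 after Cugbp1 siRNA (limma adjusted p = 0.0275) and by 0.29 after Mbnl1 siRNA (limma adjusted p = 0.0219). It rests on 6 of 31 probe sets. Both calls ended in 4 fits, those without control replicates 1 or 2, or without replicate 1 or 3 of the siRNA group itself (-0.36 to -0.17 and -0.39 to -0.21). Itga5, the fibronectin receptor subunit, measured 11.01, 11.05 and 11.12 after Cugbp1 siRNA and 11.14 on all 3 Mbnl1 siRNA arrays, against 11.20, 11.22 and 11.18 in controls. Gene values summarise many probe sets by medians and can tie, so the SD of 0 after Mbnl1 siRNA does not measure the spread. Itga5 fell by 0.14 after Cugbp1 siRNA (limma adjusted p = 0.0238), while its -0.06 after Mbnl1 siRNA passed no test (-0.15 to 0.03, limma adjusted p = 0.261). The first ended without control replicate 1 or Cugbp1 siRNA replicate 2 (-0.18 to -0.12 over the 9 fits). Itga2b, known as the fibrinogen receptor subunit of platelets, fell by 0.16 after Mbnl1 siRNA (limma adjusted p = 0.0279) and was -0.13 after Cugbp1 siRNA (limma adjusted p = 0.0627). Its call ended without any 1 of the controls or Mbnl1 siRNA replicates 2 or 3 (-0.23 to -0.12).

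The remaining alpha subunits were not called in the fit to all arrays, though each was called under an alternative listed with the processing. Itga7, the laminin receptor subunit of muscle, was 0.11 above control after Cugbp1 siRNA (95% interval 0.01 to 0.21, limma adjusted p = 0.0774) and 0.09 after Mbnl1 siRNA (-0.01 to 0.19, limma adjusted p = 0.131). Itga3, another laminin receptor subunit, was -0.04 and 0.09, and its difference between the siRNAs was -0.13 (limma adjusted p = 0.0955). Itga10, a collagen receptor subunit of cartilage, was -0.16 and 0.09, and its difference was -0.25 (limma adjusted p = 0.0868).

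Of the activators and actin linkers, Tln2 rose after both siRNAs, Fermt2 rose after Cugbp1 siRNA and Tln1 fell after Mbnl1 siRNA. Talins bind the beta subunit's tail and join it to actin. Tln2, the isoform found in striated muscle, measured 8.22, 8.35 and 8.49 after Cugbp1 siRNA and 8.33, 8.30 and 8.39 after Mbnl1 siRNA, against 8.09, 8.13 and 8.12 in controls. It rose by 0.24 (SE 0.06, limma adjusted p = 0.0162) and by 0.22 (SE 0.06, limma adjusted p = 0.0187). Of its 64 probe sets 57 and 56 were higher than in controls. Each call ended in 1 fit with an array left out, that without replicate 3 of the siRNA group itself (0.17 and 0.22), and both ended with the arrays centred on the median gene.

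Tln1, the widely expressed talin, measured 10.82, 10.89 and 10.97 after Cugbp1 siRNA and 10.79, 10.82 and 10.82 after Mbnl1 siRNA, against 10.98, 11.01 and 10.98 in controls. Every siRNA array is below every control. The fall of 0.17 after Mbnl1 siRNA passed the test (limma adjusted p = 0.0119) in the fit to all arrays and in each of the 9 fits with 1 left out, and 54 of its 58 probe sets were lower. The change of -0.09 after Cugbp1 siRNA did not (-0.19 to 0.01, limma adjusted p = 0.121). The difference between Tln1 and Tln2 in direction was not tested. Fermt2, the kindlin of mesenchymal cells, measured 9.87, 9.90 and 9.94 after Cugbp1 siRNA and 9.79, 9.76 and 9.80 after Mbnl1 siRNA, against 9.69, 9.71 and 9.67 in controls. It rose by 0.21 after Cugbp1 siRNA (SE 0.04, limma adjusted p = 0.00293), also in each fit with 1 array left out. After Mbnl1 siRNA it was 0.09 above control (limma adjusted p = 0.0907), and the difference between the siRNAs was 0.12 (limma adjusted p = 0.0795).

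Vcl, which reinforces the link of talin to actin, was -0.03 after Cugbp1 siRNA and 0.03 after Mbnl1 siRNA, and Tns1, which binds actin and the tail of the beta subunit, was -0.03 and -0.01. Neither passed the test. Ilk, Lims1 (PINCH) and Parva, the genes of the ternary complex, were not called either, apart from Parva after Cugbp1 siRNA with the stricter filter or the arrays centred on their median (adjusted p 0.0465 and 0.014). Ilk was -0.05 and 0.01, Lims1 -0.05 and 0.03, and Parva 0.11 (0.02 to 0.20, limma adjusted p = 0.0572) and 0.04. For Vcl, Tns1, Ilk and Lims1 the 95% intervals against control lie between -0.16 and 0.14.

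Of the kinases and scaffolds, in the fit to all arrays only Ptk2, which encodes focal adhesion kinase, was called. It measured 9.66, 9.71 and 9.75 after Cugbp1 siRNA and 9.68, 9.73 and 9.75 after Mbnl1 siRNA, against 9.63, 9.54 and 9.53 in controls. It rose by 0.14 (limma adjusted p = 0.0384) and by 0.15 (limma adjusted p = 0.0226). The calls ended in 5 and 4 fits with 1 array left out, both without control replicates 2 or 3 or replicates 2 or 3 of the siRNA group itself, and the first also without Mbnl1 siRNA replicate 2 (0.11 to 0.18 and 0.13 to 0.19). Both ended with the quantile normalisation repeated or the arrays centred on the median gene. Src, the tyrosine kinase that acts with it, was 0.00 and 0.02. The scaffold Pxn (paxillin) was 0.08 and 0.03, and Bcar1 (p130Cas) 0.05 and -0.03. Zyx, a mechanosensor of stress fibres, was 0.03 and 0.00, and its binding partner Vasp, which elongates actin filaments, was 0.02 and 0.02. None of these 5 was called in the fit to all arrays, though Pxn was after Cugbp1 siRNA with the arrays centred on their median.

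Probe sets were then set against the value of their own gene on the same array, which asks whether a stretch of the transcript departed from the rest. A departure can come from an exon, a transcript end or the probe itself, and no position within the gene was used. Of 621 probe sets in 28 of the genes, 21 (3.38%) departed after Cugbp1 siRNA, against 3.75% of all 158713 probe sets tested, and 40 (6.44%) departed after Mbnl1 siRNA, against 6.98%. Between the siRNAs limma called 0 of the 621, against 0.0277% of all. An unadjusted p under 0.05 was found in 45 of the 621, against 10521 of all 158713. DiffSplice called 5 of the 621, and its count over all probe sets is given below. The shares are again near those of all probe sets. Itgb8 and Tln2 held 3 and 7 of the calls after Cugbp1 siRNA, and 7 and 6 of those after Mbnl1 siRNA.

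The largest departure in both comparisons was at Itgb8 probe set 4585695. Relative to its gene it measured 1.08, 0.58 and 0.83 after Cugbp1 siRNA and 0.86, 0.80 and 0.94 after Mbnl1 siRNA, against 1.76, 1.95 and 1.88 in controls (log2 difference from the gene value). All siRNA arrays are well below the controls. The change was -1.04 after Cugbp1 siRNA (SE 0.11, limma adjusted p = 0.00234) and -0.998 after Mbnl1 siRNA (SE 0.11, limma adjusted p = 0.00138). It kept its call in both comparisons under all 17 alternatives run. Its own intensity changed by -0.55 after Cugbp1 siRNA and by -0.10 after Mbnl1 siRNA, while that of the whole gene rose. Itgb8 probe set 5212667 departed upward, by 0.61 and 0.73 (limma adjusted p = 0.00575 and 0.00173).

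Itgb4 had departures in opposite directions. Probe set 4586975 measured 0.58, 0.58 and 0.29 after Cugbp1 siRNA and 0.25, 0.02 and 0.60 after Mbnl1 siRNA, against 0.91, 1.20 and 1.40 in controls, relative to its gene. It changed by -0.69 (limma adjusted p = 0.0359) and -0.88 (limma adjusted p = 0.00933). The first call was lost in 6 of 9 fits with 1 array left out, all but those without control replicate 1 or Mbnl1 siRNA replicates 2 or 3 (highest adjusted p 0.123). Probe set 5134569 measured -0.57, -0.56 and -0.61 after Cugbp1 siRNA and 0.04, 0.25 and 0.06 after Mbnl1 siRNA, against -0.70, -0.62 and -0.94 in controls. The Mbnl1 siRNA arrays stand apart from the other 6. The change was 0.87 after Mbnl1 siRNA (SE 0.11, limma adjusted p = 0.00213) and 0.18 after Cugbp1 siRNA (limma adjusted p = 0.383). The difference between the siRNAs of -0.70 did not pass limma's test (adjusted p = 0.0941) and passed that of diffSplice (adjusted p = 0.0415).

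Tln2 gave 3 of the probe sets with large departures. Probe set 5260870 measured 0.73, 0.16 and 0.04 after Cugbp1 siRNA and 0.33, 0.55 and 0.26 after Mbnl1 siRNA, against 1.27, 1.11 and 0.95 in controls, and changed by -0.80 and -0.73 (limma adjusted p = 0.0234 and 0.0227). Each call was lost in 4 of 9 fits with 1 array left out, both without control replicates 1 or 2, the first also without Cugbp1 siRNA replicates 2 or 3 and the second without Mbnl1 siRNA replicates 1 or 3 (highest adjusted p 0.0846 and 0.0905). Probe set 4631275 measured -1.26, -0.79 and -0.39 after Cugbp1 siRNA and -0.72, -0.66 and -0.68 after Mbnl1 siRNA, against -1.26, -2.04 and -1.65 in controls. It changed by 0.96 after Mbnl1 siRNA (limma adjusted p = 0.0278) and by 0.83 after Cugbp1 siRNA, which passed no test (limma adjusted p = 0.0637). The Mbnl1 siRNA call was lost in 5 of 9 such fits, those without control replicates 2 or 3 or any Mbnl1 siRNA array (highest adjusted p 0.0971). Probe set 4793159 was high after Cugbp1 siRNA alone by the test. It measured 0.13, 0.08 and 0.16 after Cugbp1 siRNA and -0.22, 0.04 and 0.00 after Mbnl1 siRNA, against -0.49, -0.18 and -0.998 in controls, and changed by 0.68 (limma adjusted p = 0.0498) and 0.50 (limma adjusted p = 0.0963). Its difference between the siRNAs was 0.18 (limma adjusted p = 0.879), and its call was lost under 13 of 17 alternatives.

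Vasp, whose gene value did not move, had a probe set that did. Probe set 4381462 measured -0.47, -0.58 and -0.38 after Cugbp1 siRNA and -0.67, -0.88 and -0.92 after Mbnl1 siRNA, against 0.20, -0.07 and 0.00 in controls, and changed by -0.52 and -0.87 (limma adjusted p = 0.0313 and 0.00263). The first call was lost in 6 of 9 fits with 1 array left out, those without control replicates 1 or 3, any Cugbp1 siRNA array or Mbnl1 siRNA replicate 2 (highest adjusted p 0.115). Itga3 probe set 5107290 measured -1.64, -1.39 and -1.56 after Cugbp1 siRNA and -1.48, -1.87 and -1.75 after Mbnl1 siRNA, against -0.97, -1.002 and -0.61 in controls. It changed by -0.67 (limma adjusted p = 0.0352) and -0.84 (limma adjusted p = 0.01), and the first call was lost in 4 of 9 such fits, those without control replicate 3 or any Cugbp1 siRNA array (highest adjusted p 0.0997). In both probe sets every siRNA array is below every control.

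In Ptk2 probe set 5534854, which measured -0.42, -0.25 and -0.52 after Cugbp1 siRNA and -0.36, -0.66 and -0.50 after Mbnl1 siRNA, against 0.22, -0.01 and 0.67 in controls, the change was -0.69 (limma adjusted p = 0.037) and -0.80 (limma adjusted p = 0.0151). Itgb5 probe set 5339270 measured -0.94, -0.75 and -1.04 after Cugbp1 siRNA and -0.77, -1.13 and -0.78 after Mbnl1 siRNA, against -1.44, -1.92 and -1.39 in controls, and changed by 0.67 (limma adjusted p = 0.048) and 0.69 (limma adjusted p = 0.0315). The control arrays spread more than the siRNA arrays in both. The Cugbp1 siRNA calls of these 2 were lost under 11 and 14 of 17 alternatives. In Itgb3, probe sets 5005104 and 4656833 did not follow the rise of the gene after Mbnl1 siRNA (-0.77 and -0.60 relative to it, limma adjusted p = 0.00164 and 0.00656).

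**Figure D4:**
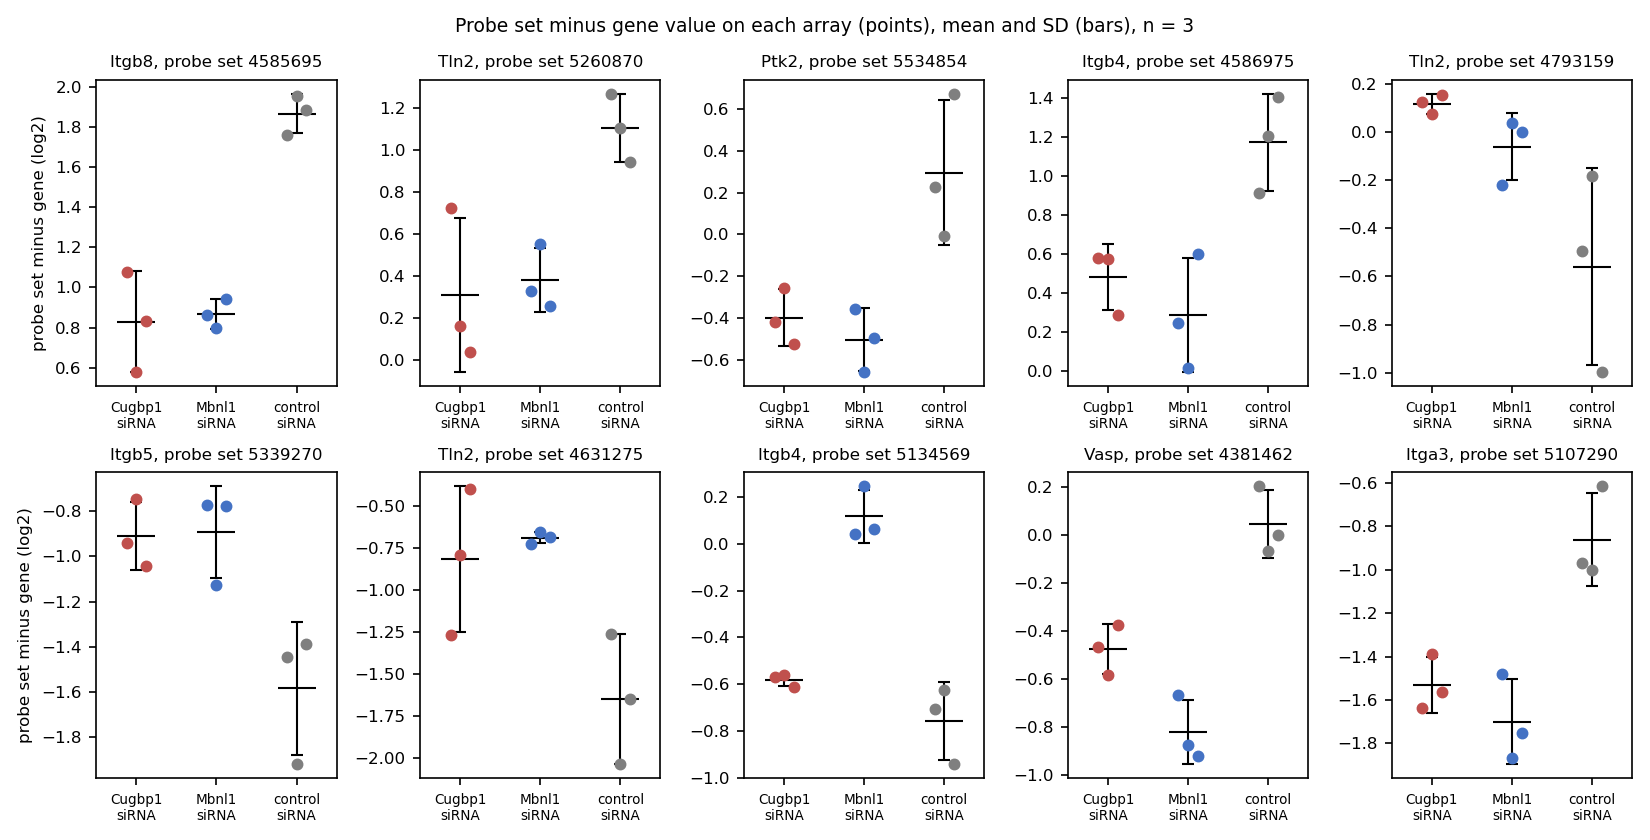
Probe set minus gene value (log2) on each array for the 10 probe sets among the 6 largest called departures in either comparison with control. The Cugbp1 siRNA, Mbnl1 siRNA and control siRNA groups are shown from left to right. Points are arrays, bars the mean and SD of 3 arrays, and each panel has its own axis. In Itgb8 probe set 4585695 the siRNA arrays lie between 0.58 and 1.08 and the controls between 1.76 and 1.95, and in Itgb4 probe set 5134569 only the Mbnl1 siRNA arrays are above 0.

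Genes outside the 33 that act in the same pathway were counted in 4 lists. Of the 6 letter-named alpha subunits, 0 rose and 2 fell after Cugbp1 siRNA (0 and 4 with the arrays centred on the median gene), and 1 rose and 2 fell after Mbnl1 siRNA (1 and 0 with the arrays centred on their median, 1 and 3 on the median gene). These are 33.3% and 50% of the list called, against 38.7% and 41.5% of all genes. Itgav, the partner of Itgb3, Itgb5 and Itgb8, measured 10.21, 10.34 and 10.43 after Cugbp1 siRNA and 10.47, 10.56 and 10.54 after Mbnl1 siRNA, against 10.28, 10.30 and 10.24 in controls. It rose by 0.25 after Mbnl1 siRNA (limma adjusted p = 0.00645) and was 0.05 after Cugbp1 siRNA (limma adjusted p = 0.502). The difference between the siRNAs was -0.20 (limma adjusted p = 0.0551), with no Cugbp1 siRNA array reaching the lowest Mbnl1 siRNA array. The leukocyte subunit Itgam fell by 0.33 after Cugbp1 siRNA and by 0.24 after Mbnl1 siRNA. Itgal fell by 0.37 after Cugbp1 siRNA and was -0.14 after Mbnl1 siRNA (limma adjusted p = 0.226), and Itgae was -0.14 after Cugbp1 siRNA (limma adjusted p = 0.103) and fell by 0.17 after Mbnl1 siRNA.

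The integrin ligands differed between the siRNAs in 8 of 26 tested genes, all 8 lower after Cugbp1 siRNA than after Mbnl1 siRNA, against 5.07% of all genes that were lower. After Cugbp1 siRNA 4 rose and 4 fell (8 and 2 with the arrays centred on their median, 4 and 8 on the median gene), and after Mbnl1 siRNA 12 rose and 3 fell. The shares of the list called were 30.8% and 57.7%, against 38.7% and 41.5% of all genes. The median difference of the list between the siRNAs was -0.10. Postn (periostin, a matrix protein that binds ITGAV integrins) rose by 1.05 after Mbnl1 siRNA and was 0.22 after Cugbp1 siRNA (limma adjusted p = 0.0863), a difference of -0.83 (limma adjusted p = 5.82e-04). Tnc (tenascin-C) rose by 0.59 after Mbnl1 siRNA and was -0.10 after Cugbp1 siRNA (limma adjusted p = 0.161), a difference of -0.69 (limma adjusted p = 7.11e-05). Ccn2, a matricellular protein, and Ltbp1, which holds latent TGF-beta in the matrix, differed by -0.44 and -0.37, and Fn1 (fibronectin) by -0.34. Edil3 and the laminin chain gene Lama2 rose after both siRNAs, by 0.60 and 0.85 and by 0.55 and 0.66. Ccn1 fell by 0.37 after Cugbp1 siRNA and by 0.28 after Mbnl1 siRNA. The laminin chain gene Lamc1 rose by 0.27 and 0.56.

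Of 49 tested genes among 57 other adhesome genes, 14 rose and 7 fell after Cugbp1 siRNA, and 15 rose and 7 fell after Mbnl1 siRNA, which is 21 and 22 calls, or 42.9% and 44.9%, near the 38.7% and 41.5% of all genes (6 and 12, and 10 and 13, with the arrays centred on the median gene). Nedd9, a scaffold related to Bcar1, rose by 0.67 and 0.63, and Efs, the other relative of Bcar1 in the list, fell by 0.42 and 0.55. Apbb1ip (RIAM), which brings talin to the membrane, rose by 0.44 after Cugbp1 siRNA and by 0.34 after Mbnl1 siRNA, and Rap1a, the small GTPase it binds, rose by 0.33 and 0.42. Kank1, a talin-binding protein, fell by 0.48 after Cugbp1 siRNA and by 0.36 after Mbnl1 siRNA, on 4 kept probe sets near the threshold. None of these 3 was called between the siRNAs (limma adjusted p = 0.428, 0.391 and 0.57). The kinase gene Fyn was 0.05 after Cugbp1 siRNA (limma adjusted p = 0.586) and rose by 0.38 after Mbnl1 siRNA. Between the siRNAs 5 genes were higher and 3 lower after Cugbp1 siRNA. Cav1 (caveolin) and the adaptor Crk were both 0.33 higher, and the kinases Fyn and Pak2 differed by -0.33 and -0.30.

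Of 17 other adhesion receptors and partners, 6 rose and 3 fell after Cugbp1 siRNA, and 6 rose and 1 fell after Mbnl1 siRNA (5 and 4 in both comparisons with the arrays centred on the median gene). The shares called were 52.9% and 41.2%, against 38.7% and 41.5% of all genes. The syndecan gene Sdc2, a heparan sulphate co-receptor of integrins, rose by 0.53 and 0.71 and differed by -0.19 between the siRNAs (limma adjusted p = 0.0263). Ncam1 rose by 0.31 and 0.30, the N-cadherin gene Cdh2 by 0.31 and 0.35, and Cd47, which associates with ITGB3, by 0.30 and 0.29 after Cugbp1 siRNA and Mbnl1 siRNA. Mcam fell by 0.35 after Cugbp1 siRNA and was -0.23 after Mbnl1 siRNA (limma adjusted p = 0.0542). Cdh15, the M-cadherin of myoblasts, rose by 0.32 after Cugbp1 siRNA and was 0.01 after Mbnl1 siRNA (limma adjusted p = 0.881), a difference of 0.30 (limma adjusted p = 0.0213).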

How the data were processed

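Total RNA of 9 samples was hybridised to Affymetrix exon arrays, 3 per siRNA group, with groups and replicate numbers taken from the sample titles. The authors deposited the intensity of 1195555 probe sets per array on a linear scale, made with RMA in Affymetrix Expression Console on build mm9, per the submitters' processing notes. Software versions were not given in the sources used here. RMA normalises between arrays, so changes are relative to the bulk of probe sets. All 9 columns matched a sample.

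The values were log2-transformed. The platform annotation named 316997 probe sets with 1 symbol and 6571 with several, which were not used. Probe sets below the 75th percentile in their mean over the 9 arrays (intensity 128) were left out. A gene value is the Tukey median polish of at least 3 kept probe sets, and 12646 genes were fitted in limma 3.58.1 under R 4.3.3, each group having its own mean, followed by eBayes. For exon use, the gene value was subtracted from each of its probe sets array by array, and the result fitted with a mean-variance trend in genes with at least 4 kept probe sets, 158713 probe sets in all. Benjamini-Hochberg adjustment ran over all genes or probe sets, with calls at 0.05. The steps were also run on simulated data. Noise was drawn there for each probe set alone, with no shift shared by an array, so that run cannot check the scaling.

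The genes, lists and tests were chosen with earlier results of these data known. Values on all arrays are given for genes called with a change of at least 0.3 or called between the siRNAs, with some others added after their values were seen, and for the 6 largest called probe set departures per comparison with control. Of each list, the 4 largest called changes are named. Further names from the difference between the siRNAs were chosen after their values were seen. Arrays allow no depth, and their number limits the precision. No pair of arrays held identical values. Promoter windows came from RefSeq, assembly GRCm38.p6, and no coordinates of mm9 were used. Alternatives were other filters, scalings and summaries, fits to the compared groups alone, a replicate block, diffSplice and leaving out each array.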

Additional observations from a re-analysis of the deposited data

How the results depend on the processing

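The calls of Itgb8 in all 3 comparisons held under every alternative run, as did those of Itgb3 and Itgb5 after Mbnl1 siRNA and that of Itgb3 between the siRNAs. The count of called genes among the 29 after Cugbp1 siRNA, 11, was 5 without the filter and 6 with the compared groups alone. Between the siRNAs, 4 became 7 with the mean of the kept probe sets, 2 with the compared groups alone and 2 with a replicate block, and the 1181 of all genes became 639 without the filter. Itgb6 after Mbnl1 siRNA turned to 0.10 without the filter. The cause was not tested. Beside the ends of calls given with each gene, calls ended after Cugbp1 siRNA for Itgb4, Itgb5, Itgb6 and Ptk2 without the filter, Itgb5 with the quantile normalisation repeated, Itga5 with the arrays centred on their median, and Itga5, Itga9, Itgb5 and Ptk2 with the compared groups alone. After Mbnl1 siRNA they ended for Itgb7 without the filter, with the mean of the kept probe sets and with the compared groups alone, for Itgb6 with the stricter filter and that mean, and for Itga2b, Itgb6 and Itgb7 with the arrays centred on their median. Between the siRNAs they ended for Itgb1 and Itgb5 without the filter and with the compared groups alone, and for Itgb5 with the arrays centred on their median. Calls were gained after Cugbp1 siRNA for Parva with the stricter filter, Itga7, Parva and Pxn with the arrays centred on their median, Itga2b and Tln1 on the median gene, Itga2b and Itgb2 with the mean of the kept probe sets, and Itga2b with a replicate block. After Mbnl1 siRNA they were gained for Itga10 and Itgb1 without the filter, Fermt2, Itgb1 and Itgb4 with the stricter filter, Fermt2, Itga3 and Itgb1 with the arrays centred on their median, Itga5 on the median gene, and Fermt2, Itgb1 and Itgb2 with that mean. Between the siRNAs they were gained for Itga10 without the filter, Itgb4 with the quantile normalisation repeated, Itga3 and Itgb4 on the median gene, and Itga10, Itgb4 and Itgb6 with that mean.

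Departures of probe sets moved more. Without the filter the 21 and 5955 (of the genes and of all) after Cugbp1 siRNA became 1 and 671, the 40 and 11072 after Mbnl1 siRNA became 12 and 2689, and the 44 of all between the siRNAs became 0. With the compared groups alone they were 7 and 2004 after Cugbp1 siRNA and 25 of all between the siRNAs. With diffSplice they were 45 and 11709, 63 and 17155, and 5 and 554 between the siRNAs. The 0 of the genes between the siRNAs became 1 with the stricter filter and 1 with the mean of the other probe sets as the gene value.

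Leaving out 1 array gave 6 to 13 genes and 3498 to 5523 of all after Cugbp1 siRNA (lowest without its replicate 3), 6 to 13 and 3899 to 6025 after Mbnl1 siRNA (lowest without its replicate 3), and 2 to 4 and 632 to 1155 between the siRNAs. Departures ranged over 4 to 16 and 1623 to 6386 after Cugbp1 siRNA, 15 to 40 and 3234 to 12516 after Mbnl1 siRNA, and 0 to 0 and 12 to 36 between the siRNAs.

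Scaling moved the direction of calls. Of the 29 genes, 5 were called higher and 6 lower after each siRNA. With the quantile normalisation repeated these were 3 and 6 after Cugbp1 siRNA and 4 and 6 after Mbnl1 siRNA. With each array centred on its median they were 8 and 4, and 8 and 3. With each array centred on the median gene, an alternative chosen after seeing the data, they were 2 and 8, and 3 and 7. For all genes, 3293 higher and 1600 lower after Cugbp1 siRNA became 4398 and 1230 with the median and 1677 and 2726 with the median gene, and 3397 and 1848 after Mbnl1 siRNA became 2207 and 3064 with the median gene. The same centring turned 14 higher and 7 lower adhesome genes after Cugbp1 siRNA into 6 and 12, and 15 and 7 after Mbnl1 siRNA into 10 and 13 (11 and 10 with the quantile normalisation repeated). For the ligands, 4 and 4 after Cugbp1 siRNA became 8 and 2 with the median and 4 and 8 with the median gene, while 0 and 8 between the siRNAs stayed 0 and 8 in count under all 3 scalings. The median change of all genes, 0.05 and 0.04 against control, was 0.09 and 0.08 with the median, and -0.02 and -0.03 with the median gene.

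The labels do not say what a replicate number shares, so the numbers were not taken as pairs. Deviations of same-numbered arrays from their group means had r of -0.10 to 0.12. With 3 arrays per group these values cannot settle whether a pairing existed. With a replicate block, the gene counts were 2 between the siRNAs, departures after Cugbp1 siRNA 10 (Itga11, Itgb5 and Ptk2 losing their gene-level calls after that siRNA, Itgb1 and Itgb5 theirs between the siRNAs), and departures of all probe sets between the siRNAs 20. Signal near background limits Itga9, Itga11, Itgb6 and Itgb2, which rest on 6, 6, 5 and 3 probe sets.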
